A study of Mus musculus with 7 samples.

Results

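The forkhead transcription factor genes were taken as all protein-coding genes of the GRCm38.p6 RefSeq table whose symbol begins with Fox, a letter from a to s and a digit, which gave 44 of 21887 protein-coding genes (autosomes 1 to 19 with X and Y), in 19 subfamilies named by letter. The series profiled trimethylation (H3K27me3) and acetylation (H3K27ac) of lysine 27 of histone H3 by chromatin immunoprecipitation and sequencing, with 2 libraries of each mark. All libraries came from globose basal cells, the dividing progenitors of the olfactory epithelium, of adult wild-type mice killed 7 to 10 days after methimazole, which destroys the epithelium so that it regenerates. Each replicate pooled 3 mice, and the cells were enriched by magnetic selection for the surface receptor c-Kit. There was no group without the lesion, no second genotype and no measurement of RNA, so the comparisons below are between the marks and between forkhead genes and all protein-coding genes.

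Forkhead proteins share a winged-helix domain that binds DNA at short motifs around the core GTAAACA. Some members act as patterning factors of single embryonic tissues, such as endoderm, mesoderm, neural crest or lens, and others are made in most cells and couple transcription to insulin signalling, metabolism or the cell cycle. H3K27me3 is written by Polycomb Repressive Complex 2 and is typical of silent developmental regulators, whereas H3K27ac is typical of active promoters and enhancers, and 1 histone tail cannot carry both on the same lysine. In pooled cells, the presence of both marks at 1 gene in the same cell and their presence in different cells or on different alleles cannot be told apart.

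The promoters of 4 members show the range of sequence and chromatin described below. Each is the 300 bases from 250 bases before to 50 bases after the annotated start, from RefSeq on GRCm38.p6, read 5′ to 3′ on the strand of the gene, with each CG in capitals. Foxd1 (chr13:98353995-98354294, plus strand, 15 CG) held the best mean rank of H3K27me3 enrichment in the family. Foxc1 (chr13:31806396-31806695, plus strand, 32 CG) held the most bases under peaks of all 4 libraries. Foxo3 (chr10:42276646-42276945, minus strand, 35 CG) was among the 3 members with the best ranks of H3K27ac. Foxr2 (chrX:153118538-153118837, plus strand, 3 CG) had no peak of any library over its start, but H3K27me3 peaks of replicates 1 and 2 lay 78 and 8 bases from it. This only annotated start of Foxr2 lies inside the gene, which begins at 153114581.
Foxd1: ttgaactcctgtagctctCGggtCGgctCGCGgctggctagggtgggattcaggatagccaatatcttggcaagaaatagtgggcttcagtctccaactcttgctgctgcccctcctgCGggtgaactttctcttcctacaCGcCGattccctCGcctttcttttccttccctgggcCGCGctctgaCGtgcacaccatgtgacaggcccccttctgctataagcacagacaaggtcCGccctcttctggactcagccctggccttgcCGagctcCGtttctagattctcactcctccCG
Foxc1: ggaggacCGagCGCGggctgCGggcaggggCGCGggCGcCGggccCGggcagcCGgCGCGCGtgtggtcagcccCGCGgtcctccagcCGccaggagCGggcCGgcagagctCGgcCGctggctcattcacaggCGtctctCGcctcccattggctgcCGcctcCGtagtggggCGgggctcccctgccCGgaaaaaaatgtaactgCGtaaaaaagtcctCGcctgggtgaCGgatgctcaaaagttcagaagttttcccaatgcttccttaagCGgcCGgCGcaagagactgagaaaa
Foxo3: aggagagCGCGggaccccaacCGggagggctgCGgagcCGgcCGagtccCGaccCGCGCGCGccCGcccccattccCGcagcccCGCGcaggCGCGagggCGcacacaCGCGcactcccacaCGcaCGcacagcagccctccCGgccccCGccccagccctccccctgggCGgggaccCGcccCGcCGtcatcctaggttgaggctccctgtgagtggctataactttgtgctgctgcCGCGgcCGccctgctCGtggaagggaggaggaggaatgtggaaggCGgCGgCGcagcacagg
Foxr2: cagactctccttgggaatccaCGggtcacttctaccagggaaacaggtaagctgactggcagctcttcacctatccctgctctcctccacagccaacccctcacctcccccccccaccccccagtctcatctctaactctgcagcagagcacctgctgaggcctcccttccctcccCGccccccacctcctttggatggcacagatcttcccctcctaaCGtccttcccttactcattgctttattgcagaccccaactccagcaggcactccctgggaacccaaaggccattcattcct

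A mark was called at a gene where both of its libraries had a peak overlapping, by at least 1 bp, the gene body or the 5 kb on either side. By this rule every one of the 44 forkhead genes carried at least 1 mark. H3K27me3 lay on 38 (86.4%), against 46.2% of all protein-coding genes. H3K27ac lay on 34 (77.3%), against 70.0% of all protein-coding genes. The H3K27me3 count stood far above the share of all genes and the H3K27ac count close to it. Both marks were called at 28 members (63.6%), against 35.7% of all genes, H3K27me3 alone at 10 (22.7%), against 10.5%, H3K27ac alone at 6 (13.6%), against 34.3%, and neither at 0, against 19.6%. Most forkhead genes are short, and a short window has less room for a peak. In windows of up to 20 kb, H3K27me3 was called at 25 of 26 members (96.2%), against 36.7% of all genes, and H3K27ac at 17 of 26 (65.4%), against 49.9%. In windows over 20 kb, H3K27me3 was called at 13 of 18 members (72.2%), against 51.6% of all genes, and H3K27ac at 17 of 18 (94.4%), against 81.4%. The excess of H3K27me3 over the share of all genes was therefore present in both classes of window length and wider in the short one. These shares are descriptions, and no test of the family was made.

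The peak lists differ in size and the depth of the libraries is unknown, so the absence of a peak means none at the authors' threshold. H3K27me3 replicates 1 and 2 had 95749 and 65172 peaks, and H3K27ac replicates 1 and 2 had 77680 and 64279 peaks. A peak lay over the window of 66.2% and 49.6% of all protein-coding genes in the H3K27me3 libraries and of 73.1% and 71.4% in the H3K27ac libraries. Of 12 marker genes of globose basal cells, all 12 carried H3K27ac and 8 also H3K27me3, and Kit, which encodes the receptor used for the selection, carried both. Markers of other cells of the mucosa carried H3K27ac too, in 4 of 5 for horizontal basal cells, 5 of 5 for sustentacular cells, 6 of 6 for olfactory neurons, 5 of 5 for respiratory and multiciliated cells (a list that holds Foxj1 itself), 1 of 5 for mast cells, which also bear c-Kit, 4 of 5 for leukocytes and 4 of 5 for stroma and endothelium. The H3K27ac counts stand beside 70.0% of all genes. H3K27me3 lay on 5 of 5 markers of horizontal basal cells, 0 of 5 of sustentacular cells, 3 of 6 of olfactory neurons, 3 of 5 of respiratory and multiciliated cells, 1 of 5 of mast cells, 2 of 5 of leukocytes and 4 of 5 of stroma and endothelium, beside 46.2% of all genes. In the mast cell list, Cpa3 had no peak in any library, Mcpt4 and Fcer1a had an H3K27me3 peak in replicate 2 only, Cma1 carried H3K27me3 and Hdc carried H3K27ac. The part of other cell types in the results below was not tested.

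Fold enrichment is the authors' own value of each peak over its background, and the strongest peak over a member's window is given here for each library. Ranks are among all 21887 protein-coding genes within 1 library. Forkhead genes gathered at the top of the H3K27me3 ranks and not of the H3K27ac ranks. The 1000 genes with the strongest H3K27me3 peaks (4.57% of all genes) held 19 of the 44 members in replicate 1 and 20 in replicate 2, and the 1000 genes with the strongest H3K27ac peaks held 2 members in replicate 1 and 1 in replicate 2.

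**Figure D1:**
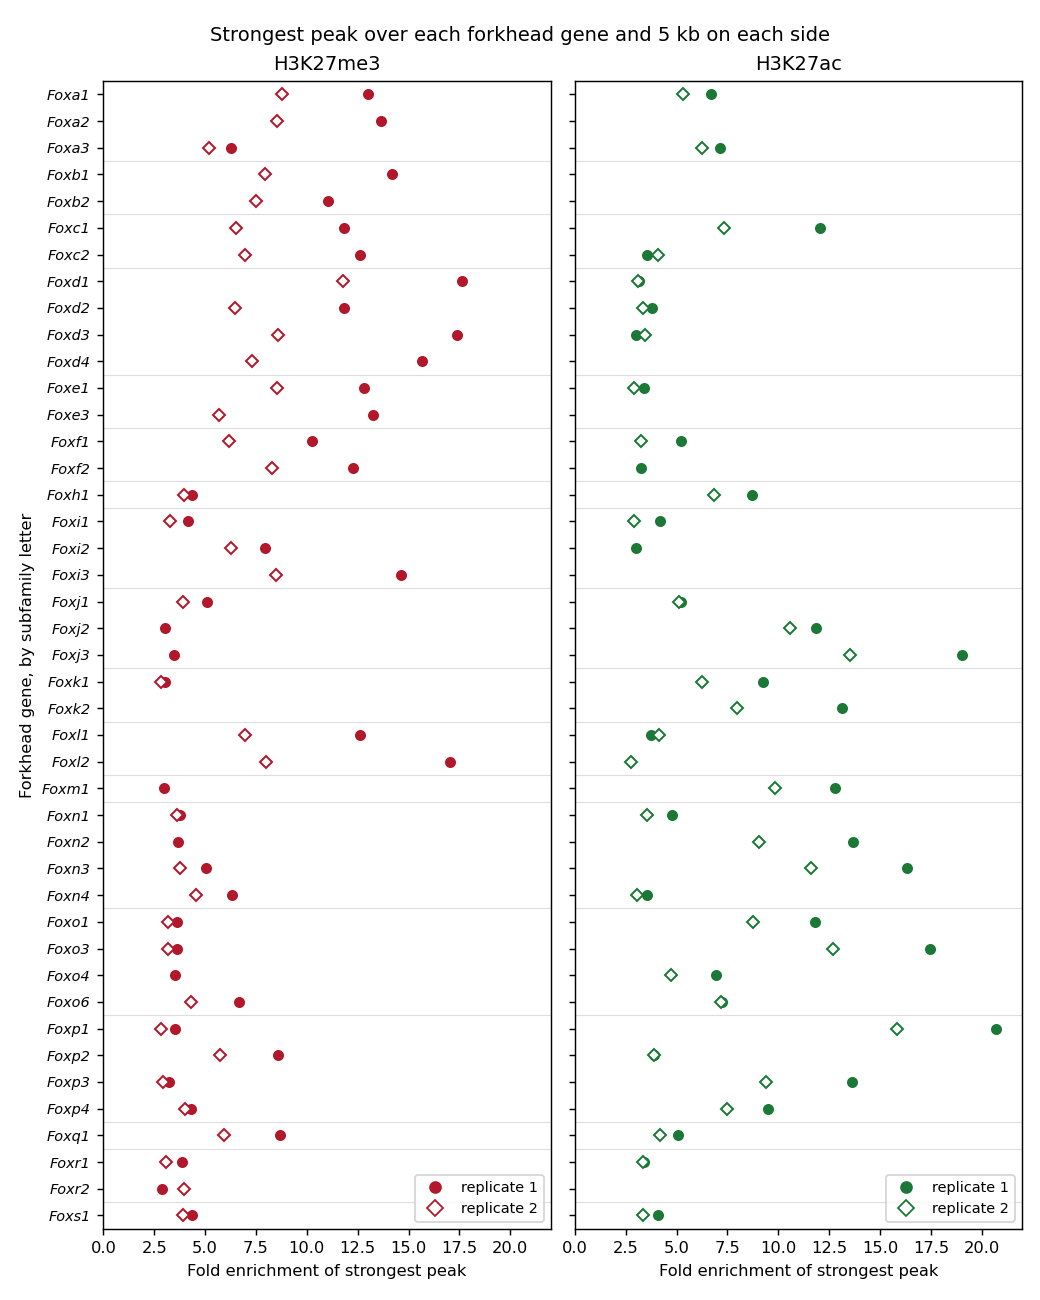
Fold enrichment of the strongest peak over each of 43 forkhead genes and 5 kb on each side, by subfamily, with H3K27me3 on the left and H3K27ac on the right. Filled circles are replicate 1 and open diamonds replicate 2, a missing symbol means no peak in that library, and members of subfamilies A to F lie mostly to the right in the H3K27me3 panel while Foxp1, Foxj3, Foxo3 and Foxn3 lie farthest to the right in the H3K27ac panel.

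The strongest H3K27me3 peaks lay on patterning genes of embryonic tissues. Foxd1, a factor of the kidney stroma and the retina, had H3K27me3 enrichment of 17.65-fold in replicate 1 and 11.77-fold in replicate 2, at ranks 12 and 7. Foxd3, which specifies neural crest, had H3K27me3 enrichment of 17.38-fold and 8.57-fold, at ranks 16 and 79. Foxl2, a regulator of ovarian granulosa cells, had H3K27me3 enrichment of 17.05-fold and 7.98-fold, at ranks 18 and 122. In each of these genes an H3K27me3 peak of both libraries covered the annotated start, including the Foxd1 sequence printed above. Their H3K27ac was faint. Foxd1 had H3K27ac peaks of 3.16-fold and 3.12-fold that shared no base with each other. Foxd3 had H3K27ac peaks of 3.03-fold and 3.47-fold. Foxl2 had no H3K27ac peak in replicate 1 and 1 of 2.75-fold in replicate 2.

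The 10 members with H3K27me3 and without H3K27ac in both libraries were Foxa2, Foxb1, Foxb2, Foxd4, Foxe3, Foxf2, Foxi2, Foxi3, Foxl2 and Foxr2. Foxa2, which acts in endoderm, notochord and floor plate, had H3K27me3 enrichment of 13.63-fold and 8.53-fold. Foxi3, a factor of ectodermal placodes, had 14.62-fold and 8.50-fold, and Foxb1, a factor of the developing hypothalamus, 14.20-fold and 7.94-fold, both without an H3K27ac peak. Foxe3, a lens factor, had H3K27me3 enrichment of 13.24-fold and 5.68-fold and no H3K27ac peak. Foxf2, a mesenchymal factor, had H3K27me3 enrichment of 12.29-fold and 8.28-fold and H3K27ac of 3.25-fold in replicate 1 only. Foxi2 had H3K27me3 enrichment of 7.92-fold and 6.27-fold and H3K27ac of 2.99-fold in replicate 1 only. The calls of Foxf2, Foxi2 and Foxl2 as H3K27me3 alone thus rest on the absence of a faint H3K27ac peak from 1 library. Foxr2 differed from the other 9, with H3K27me3 peaks of 2.90-fold and 3.95-fold that covered 1.33% and 0.796% of its window. In the other 9 members, H3K27me3 peaks of both libraries together covered between 34.2% (Foxi3) and 84.0% (Foxl2) of the window. Foxe1, the thyroid forkhead factor, had H3K27me3 enrichment of 12.83-fold and 8.54-fold and counted as carrying both marks through H3K27ac peaks of 3.38-fold and 2.92-fold.

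The largest H3K27me3 domains of the family lay at the locus of Foxf1, Foxc2 and Foxl1 on chromosome 8, all of them mesenchymal regulators. Foxf1 acts in the mesenchyme of lung and gut, Foxc2 in lymphatic and other vessels and Foxl1 in gut mesenchyme. Foxf1 lies 28.0 kb from Foxc2, with the metabolic gene Mthfsd between them, and Foxc2 lies 8.79 kb from Foxl1. From 5 kb before Foxf1 to 5 kb after Foxl1 (chr8:121079386-121135644, 56.3 kb), H3K27me3 peaks covered 70.3% of the bases in replicate 1 and 78.4% in replicate 2, and 64.7% in both. H3K27ac peaks covered 23.7% and 17.7%, and 15.2% in both. Bases under peaks of all 4 libraries made up 13.5% of the locus (7.61 kb). Most of the acetylated bases at this locus were thus also inside H3K27me3 peaks.

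The peaks of the locus were broad for one mark and narrow for the other. Foxf1 lay under an H3K27me3 peak of 26.4 kb in replicate 1, the 20th longest of 95749 in that library. In replicate 2 it lay under an H3K27me3 peak of 46.5 kb, the 7th longest of 65172. Foxc2 and Foxl1 shared a single H3K27me3 peak of 17.7 kb in replicate 1 and of 27.3 kb in replicate 2, and were the only members whose windows shared a peak. Foxf1 had H3K27me3 enrichment of 10.27-fold and 6.16-fold and H3K27ac of 5.22-fold and 3.26-fold. Its H3K27ac peaks were 5.88 kb and 5.03 kb long, and the 5029 bases of the replicate 2 peak were covered in all 4 libraries. Foxc2 and Foxl1 had the same strongest H3K27me3 peak, of 12.63-fold and 6.97-fold. Foxc2 had H3K27ac of 3.54-fold and 4.07-fold and Foxl1 of 3.74-fold and 4.13-fold. The strongest H3K27ac peak between the first and the last gene lay at the end of Mthfsd that faces Foxc2, outside the window of every member, with 13.19-fold in replicate 1 and 10.38-fold in replicate 2.

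**Figure D2:**
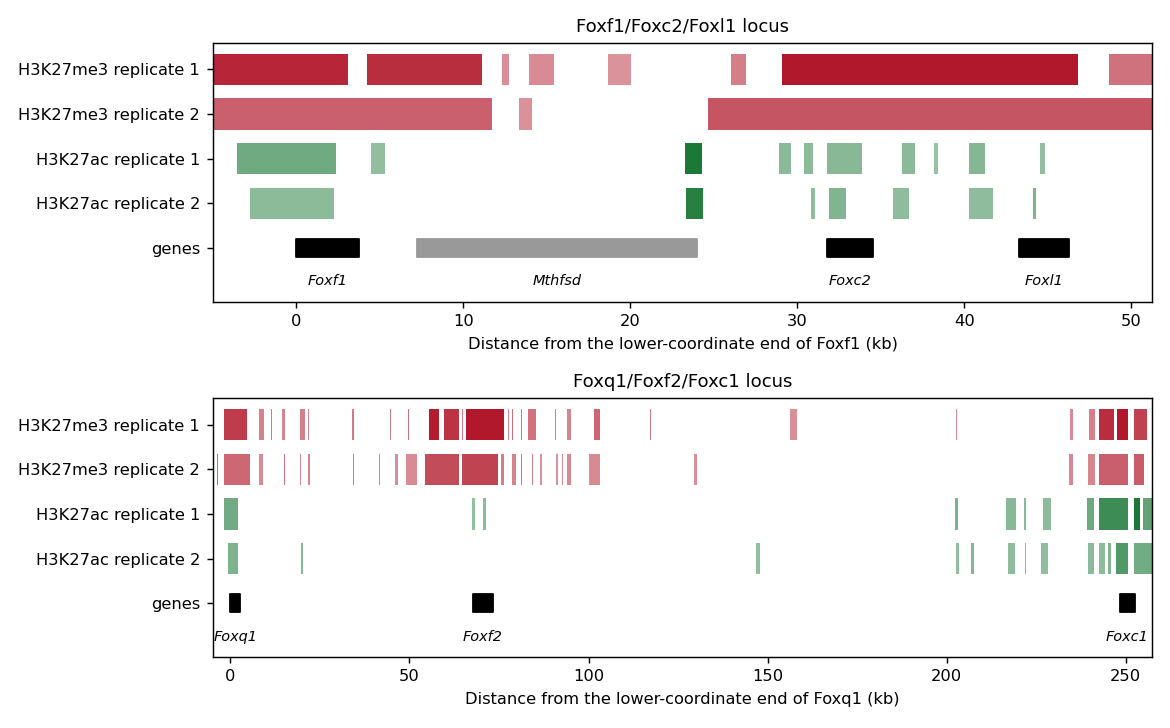
Peaks of the 4 libraries over the loci of Foxf1/Foxc2/Foxl1 (top) and Foxq1/Foxf2/Foxc1 (bottom), with distance in kb on the x axis, rows for the libraries, darker bars for higher fold enrichment, black boxes for forkhead genes and a grey box for Mthfsd. H3K27me3 covers most of the upper locus with short H3K27ac peaks inside it, and in the lower locus the H3K27ac peaks gather around Foxc1.

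The cluster of Foxq1, Foxf2 and Foxc1 on chromosome 13 (chr13:31553170-31815635, 262 kb with 5 kb on either side) was marked in separate islands. H3K27me3 peaks covered 19.7% of it in replicate 1 and 21.6% in replicate 2, and 15.9% in both. H3K27ac peaks covered 9.91% and 8.79%, and 7.17% in both. The intervals between its genes are longer than those on chromosome 8, with 64.8 kb between Foxq1 and Foxf2 and 175 kb between Foxf2 and Foxc1. Foxc1, a regulator of mesoderm, eye and vessels, had H3K27me3 enrichment of 11.84-fold and 6.51-fold and H3K27ac of 12.04-fold and 7.34-fold. H3K27me3 covered 70.1% and 70.8% of the Foxc1 window and H3K27ac covered 83.2% and 72.4% of it. Each mark taken separately therefore covered most of the Foxc1 window in each of its libraries. The bases of Foxc1 under peaks of all 4 libraries numbered 6576, the most of any member, and made up 47.0% of its window. Foxq1, known for its part in hair and in the stomach lining, had H3K27me3 enrichment of 8.67-fold and 5.91-fold and H3K27ac of 5.09-fold and 4.18-fold. Foxf2, between them, had the H3K27ac peak of 1 library noted above. Foxd2 and Foxe3 are neighbours on chromosome 4. With 5 kb on either side they span 29.8 kb, of which H3K27me3 covered 50.8% and 80.6% and H3K27ac 6.03% and 5.78%.

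At the other end stood members that are made in most cells. Foxp1, a transcriptional repressor of lung, heart and neurons among others, had H3K27ac enrichment of 20.72-fold in replicate 1 and 15.84-fold in replicate 2, at ranks 526 and 455. Foxj3 had H3K27ac enrichment of 19.03-fold and 13.50-fold, at ranks 870 and 1082. Foxo3, which is excluded from the nucleus when insulin signalling is active, had H3K27ac enrichment of 17.45-fold and 12.69-fold, at ranks 1331 and 1426. In all 3 genes the strongest H3K27ac peak of each library lay over the annotated start, and for Foxo3 that is the sequence printed above. The H3K27ac peak of Foxj3 lies within 1 kb of its neighbour Frg2f1 as well. Foxp1 and Foxo3 counted as carrying both marks through H3K27me3 peaks of 3.50-fold and 2.81-fold and of 3.64-fold and 3.18-fold, and these peaks shared no base between the libraries. The H3K27me3 peaks of Foxp1 covered 0.371% and 0.0770% of its window and those of Foxo3 1.22% and 0.362%.

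H3K27ac without H3K27me3 in both libraries was found at Foxj2, Foxj3, Foxk2, Foxm1, Foxn2 and Foxo4. Foxm1, which drives genes of the G2 and M phases, had H3K27ac enrichment of 12.79-fold and 9.84-fold and H3K27me3 of 3.00-fold in replicate 1 only. Its strongest H3K27ac peak spans the 82 bp that separate it from Rhno1, so it covers the facing ends of both genes. Foxk2, which acts with Foxk1 on glycolysis and autophagy, had H3K27ac enrichment of 13.14-fold and 7.99-fold and was the single member with no H3K27me3 peak in either library. Foxj2 had H3K27ac enrichment of 11.84-fold and 10.58-fold and H3K27me3 of 3.01-fold in replicate 1 only. Foxn2 had H3K27ac enrichment of 13.68-fold and 9.06-fold and H3K27me3 of 3.67-fold in replicate 1 only. Foxo4, a further target of insulin signalling, had H3K27ac enrichment of 6.94-fold and 4.74-fold and H3K27me3 of 3.50-fold in replicate 1 only. Foxj3 likewise had an H3K27me3 peak, of 3.46-fold, in replicate 1 only. The state of 5 of these 6 genes thus depends on H3K27me3 replicate 2. Without that library H3K27ac alone was called at 1 member, Foxk2, and at 17.5% of all genes, against 34.3% with it. Foxo1, the insulin-regulated factor best known from liver, had H3K27ac enrichment of 11.80-fold and 8.76-fold and H3K27me3 of 3.60-fold and 3.17-fold. Foxp4, a close relative of Foxp1, had H3K27ac of 9.50-fold and 7.49-fold and H3K27me3 of 4.30-fold and 4.00-fold. Foxn3, a checkpoint factor, had H3K27ac of 16.31-fold and 11.60-fold and H3K27me3 of 5.04-fold and 3.76-fold over a gene of 373587 bases. In both libraries the strongest H3K27ac peak of Foxn3 lay over its gene body but within 1 kb of Gm51999. Foxk1 had H3K27ac of 9.25-fold and 6.23-fold and H3K27me3 of 3.03-fold and 2.81-fold. Its 9.25-fold H3K27ac peak lay over the gene body, but that of 6.23-fold lay outside it, within 1 kb of the neighbour Ap5z1.

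Many calls of both marks therefore combined a strong peak of one mark with a faint peak of the other, and a stricter peak threshold separated the family. With peaks of −log10 q of at least 2 in both libraries, H3K27me3 was called at 30 members (26.1% of all genes) and H3K27ac at 25 (64.9% of all genes). With peaks of −log10 q of at least 5, H3K27me3 was called at 20 members (5.75% of all genes) and H3K27ac at 19 (52.6% of all genes). At the last threshold 18 members had H3K27me3 alone (4.21% of all genes), 17 had H3K27ac alone (51% of all genes), 2 had both (1.54% of all genes) and 7 had neither (43.2% of all genes). The 18 were Foxa2, Foxb1, Foxb2, Foxc2, Foxd1 to Foxd4, Foxe1, Foxe3, Foxf1, Foxf2, Foxi2, Foxi3, Foxl1, Foxl2, Foxp2 and Foxq1. The 17 included Foxa3, Foxh1, Foxj1 to Foxj3, Foxk1, Foxk2, Foxm1, Foxn2, Foxn3, Foxo1, Foxo3, Foxo6, Foxp1, Foxp3 and Foxp4. Subfamilies B, C, D, E, F, I, L and Q held members with H3K27me3 alone and none with H3K27ac alone. Subfamilies H, J, K, M, N and O held members with H3K27ac alone and none with H3K27me3 alone, and A and P held members of each kind. This sorting includes peaks near other genes. Foxh1 and Foxm1, the only members of H and M, lost the main-rule H3K27ac call when peaks within 1 kb of another gene were left out. Foxj1 and Foxj3 lost that call as well. The H3K27ac peaks of Foxp3 and the strongest ones of Foxa3 lay outside the gene body. The 2 members with both were Foxa1 and Foxc1, and the 7 with neither were Foxi1, Foxn1, Foxn4, Foxo4, Foxr1, Foxr2 and Foxs1. Foxa1 passed for H3K27ac only through a peak within 1 kb of Ttc6. Near the threshold, Foxe3 passed for H3K27me3 with a −log10 q of 5.73 in its weaker library and Foxa3 missed it with 4.85, while Foxa1 passed for H3K27ac with 5.73 and Foxo4 missed it with 4.39. The −log10 q grows with depth, which is unknown here, so the same threshold may stand for different enrichment in different libraries.

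Each class required the other mark to miss −log10 q of 5 in at least 1 library. Low folds of the other mark are thus in part set by this selection and describe the classes only. Among the 18 members with strong H3K27me3 alone, the strongest H3K27ac peak had a median of 3.54-fold in the 11 with one in replicate 1. The median was 3.41-fold in the 10 with one in replicate 2, and 9 of the 18 had counted as carrying both marks. Among the 17 with strong H3K27ac alone, the strongest H3K27me3 peak had a median of 3.66-fold in the 16 with one in replicate 1 and of 3.84-fold in the 12 with one in replicate 2, and 12 of the 17 had counted as carrying both marks. The other mark was not always faint, with H3K27ac of 5.22-fold at Foxf1 in the one class and H3K27me3 of 6.67-fold at Foxo6 and 6.28-fold at Foxa3 in the other, all in replicate 1. The classes also differed in gene length, which the threshold did not use directly. Genes with H3K27me3 alone had a median length of 2.77 kb (1.51 to 541 kb, n = 18), and genes with H3K27ac alone one of 49.8 kb (3.79 to 597 kb, n = 17), against medians of 5.19 kb over all forkhead genes and 17.2 kb over all protein-coding genes. A longer window offers more room for a peak, so length and state cannot be told apart in these counts. The long exception in the H3K27me3 class was Foxp2, a factor of brain circuits for vocal learning, with a gene of 541 kb and H3K27me3 enrichment of 8.58-fold and 5.72-fold over 0.699% and 1.08% of its window.

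**Figure D3:**
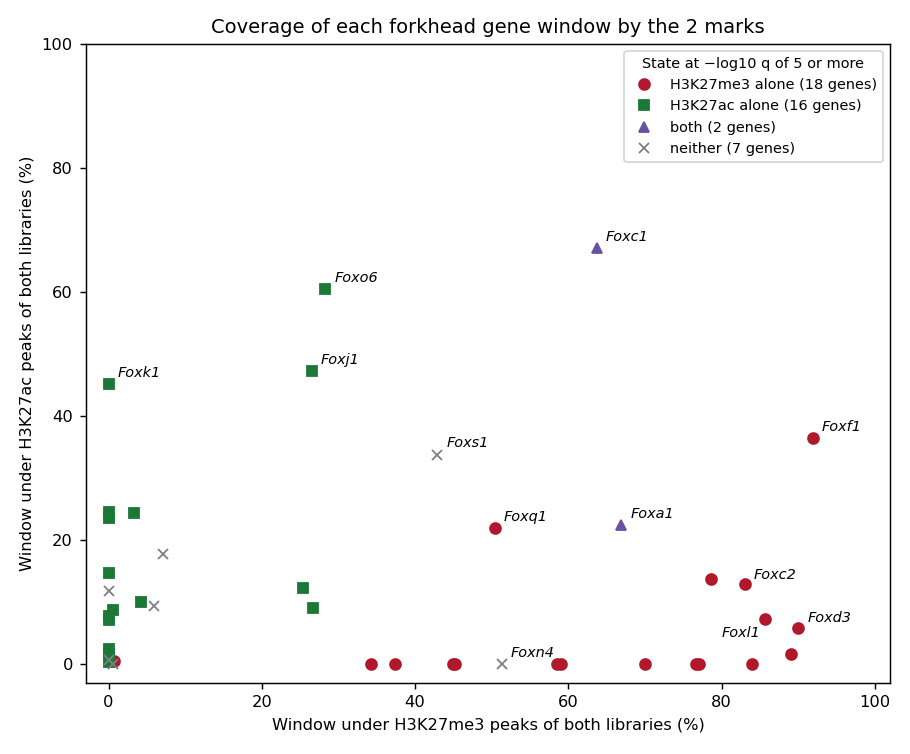
Percent of the window of 43 forkhead genes (gene body and 5 kb on each side) under peaks of both H3K27me3 libraries (x axis) and of both H3K27ac libraries (y axis), with symbols for the state at −log10 q of 5 or more. Many members lie along one axis, and Foxc1, Foxf1, Foxo6, Foxj1, Foxs1, Foxa1 and Foxq1 are among those that lie away from both.

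A few members were broadly covered by both marks. After Foxc1, with 6576 bases, the bases under peaks of all 4 libraries numbered 6122 at Foxo6 and 5029 at Foxf1. Foxo6, the member of the insulin-regulated group known from the brain, had H3K27me3 enrichment of 6.67-fold and 4.29-fold and H3K27ac of 7.24-fold and 7.19-fold. H3K27me3 covered 61.3% and 33.5% of its window and H3K27ac 76.0% and 62.4%. Foxa1, an endodermal pioneer factor, carried both marks over its start. Its strongest H3K27me3 peaks, of 13.01-fold and 8.80-fold, lay 2090 and 2046 bases from the annotated start, and its strongest H3K27ac peaks, of 6.68-fold and 5.30-fold, lay over it, where Ttc6 also overlaps. Further H3K27me3 peaks, of 10.21-fold and 5.57-fold, lay over that start as well, and 3904 bases of the window were under peaks of all 4 libraries. Foxa3, an endodermal relative of Foxa1, had H3K27me3 enrichment of 6.28-fold and 5.21-fold and H3K27ac of 7.12-fold and 6.27-fold. It was not broadly covered by H3K27ac, which lay over 14.3% and 9.65% of its window. Only 974 of its bases were under peaks of all 4 libraries. Its strongest H3K27ac peaks lay at different places in the 2 libraries, both outside the gene body, and that of replicate 2 lay within 1 kb of Sympk.

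The remaining members, several of them regulators of single cell types, varied in both marks. Foxj1, the master regulator of motile cilia, had H3K27me3 enrichment of 5.09-fold and 3.92-fold and H3K27ac of 5.23-fold and 5.13-fold. H3K27me3 covered 54.5% and 26.5% of its window and H3K27ac 63.5% and 49.3%, with Rnf157 only 845 bp away. Foxi1, the regulator of proton-secreting ionocytes, had H3K27me3 enrichment of 4.14-fold and 3.25-fold and H3K27ac of 4.19-fold and 2.89-fold, so neither mark passed the stricter threshold there. Foxn4, a factor of retinal progenitors, had H3K27me3 enrichment of 6.31-fold and 4.57-fold over 78.2% and 58.8% of its window, including a peak of 16.4 kb in replicate 1, and H3K27ac of 3.56-fold and 3.07-fold in peaks that shared no base. Foxn1, the factor of thymic epithelium, had H3K27me3 enrichment of 3.77-fold and 3.63-fold and H3K27ac of 4.76-fold and 3.53-fold. Foxs1 had H3K27me3 enrichment of 4.36-fold and 3.91-fold over 86.8% and 50.4% of its window and H3K27ac of 4.11-fold and 3.35-fold over 57.9% and 40.4%. Foxr1 had H3K27me3 enrichment of 3.87-fold and 3.09-fold and H3K27ac of 3.40-fold and 3.37-fold. Foxh1, the partner of Smad proteins in Nodal signalling, had H3K27me3 enrichment of 4.38-fold and 3.97-fold and H3K27ac of 8.71-fold and 6.85-fold, but its strongest H3K27ac peak reaches Ppp1r16a, 28 bp away. Foxp3, the factor of regulatory T cells, had H3K27ac of 13.63-fold and 9.41-fold, but that peak lay 4909 and 4873 bases from its start, over its neighbour Ppp1r3f and not over its gene body. With the gene body alone as the window, Foxp3 had neither mark and Foxa3 H3K27me3 alone, and the state of the other 42 members was the same. With peaks counted only where they lay more than 1 kb from every other protein-coding gene, Foxh1, Foxj3 and Foxm1 had neither mark and Foxj1 and Foxp3 had H3K27me3 alone. Under that setting the broad H3K27me3 peaks of Foxf1, Foxc2 and Foxl1 also dropped out, since they reach a neighbouring gene or each other in at least 1 library.

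Annotated starts were available in the promoter table for 28 of the 44 members, and for the first start of each gene the marks were read at the base itself. H3K27me3 of both libraries lay over 16 of the 28 forkhead starts (57.1%), against 16.4% of the 17492 starts of all genes. H3K27ac of both libraries lay over 12 (42.9%), against 53.8% of all starts. Both marks lay over 5 starts (17.9%), those of Foxa1, Foxc1, Foxd2, Foxd3 and Foxn1, against 7.19% of all starts. The starts of Foxn3, Foxp3 and Foxr2 (10.7%) lay under no peak of any library, against 29.2% of all starts. The only Foxn3 start in the promoter table (chr12:99450025-99450324, minus strand) lies inside the gene, which ends at 99563667, so that end was not read. The only Foxr2 start likewise lies inside its gene, which begins at 153114581 on the plus strand, so its upstream end was not read. The strongest H3K27me3 peaks of replicates 1 and 2 lay 48 and 596 bases from the Foxp3 start and 78 and 8 bases from the Foxr2 start. Foxa2 and Foxp1 have 3 annotated starts each, and all 3 of Foxa2 lay under H3K27me3 and all 3 of Foxp1 under H3K27ac in both libraries. Away from the start, the forkhead genes stayed apart from all genes in H3K27me3. At 5 kb before the start H3K27me3 covered 28.6% of forkhead genes, against 3.40% of all genes, and at 5 kb after it 32.1%, against 4.01%. H3K27ac covered 7.14% of forkhead genes at 5 kb before the start, against 4.71% of all genes, and 10.7% at 5 kb after it, against 6.27%. Around these 28 forkhead starts, H3K27me3 thus fell off less with distance than H3K27ac. Single members had wide H3K27ac, such as Foxc1. Foxo6 and Foxk1, also with wide H3K27ac, had no start in the promoter table and are not part of this profile.

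**Figure D4:**
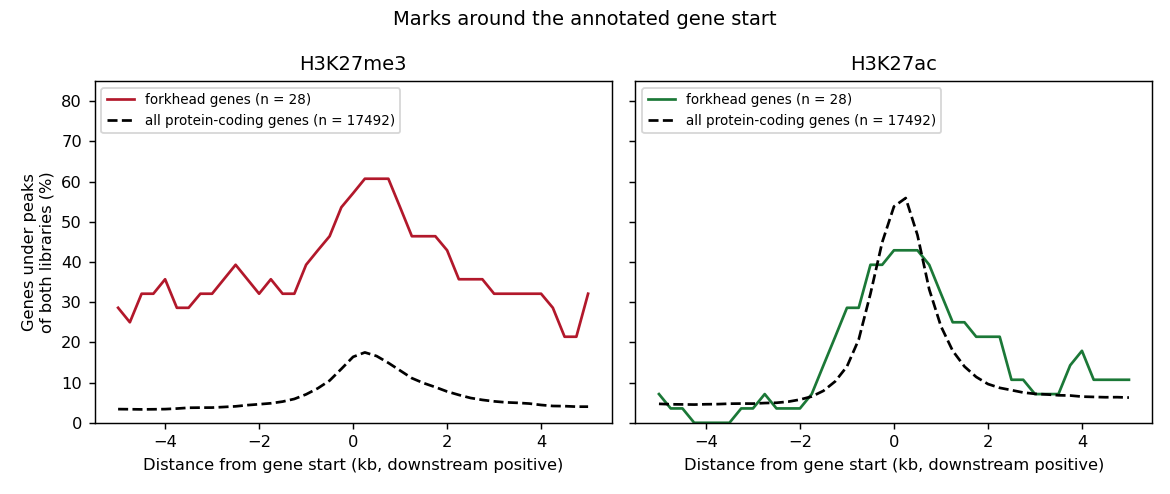
Percent of genes under peaks of both libraries of H3K27me3 (left) and H3K27ac (right) by distance from the annotated start in kb, for 28 forkhead genes (solid) and 17492 protein-coding genes (dashed). The forkhead line for H3K27me3 is at 57.1% at the start and is 28.6% and 32.1% at the edges, while that for H3K27ac is at 42.9% at the start, below the 53.8% of all genes.

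The promoters of the family were rich in CG. The 300 bases around the start held a median of 22 CG in 28 forkhead promoters (3 to 59), against 13 in 17492 promoters. By the stricter state, the median was 15 in forkhead genes with H3K27me3 alone (n = 11), 32 in those with H3K27ac alone (n = 10), 29 in Foxa1 and Foxc1 with both, and 8 in those with neither (n = 5). The classes overlapped, since members with H3K27me3 alone ranged from 5 to 31 CG and members with H3K27ac alone from 6 to 59. By the main rule, forkhead promoters with H3K27me3 alone had a median of 12 CG (n = 9), against 5 over all genes in that state. Forkhead promoters with H3K27ac alone had a median of 42 (n = 3), against 21 over all genes in that state, and those with both marks 22 (n = 16), against 17. The sequences above hold from 3 CG in Foxr2 to 35 in Foxo3, and the highest count of the family, 59, was that of Foxk2. The motif GTAAACA, searched on both strands, was found in 1 of the 28 forkhead promoters (3.57%), that of Foxa1, against 513 of 17492 promoters (2.93%).

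**Figure D5:**
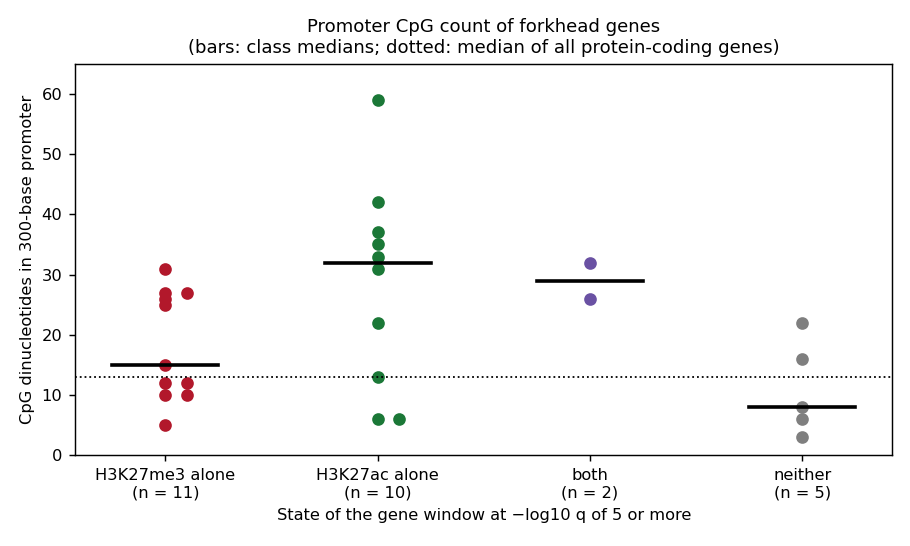
Number of CG dinucleotides in the 300-base promoter of 28 forkhead genes (y axis) by their state at −log10 q of 5 or more (x axis), with 1 point for each gene, a bar at the median of each class and a dotted line at the median of all protein-coding genes, 13. The classes overlap, with medians of 15, 32, 29 and 8.

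Genes around the family were counted by the same rule, against 46.2% of all genes for H3K27me3 and 70.0% for H3K27ac. Of 12 genes that control FoxO factors through insulin and PI3-kinase signalling, 6 carried H3K27me3 and 12 carried H3K27ac. Igf1r, the receptor of insulin-like growth factor, had H3K27me3 enrichment of 3.72-fold and 3.76-fold and H3K27ac of 16.58-fold and 12.26-fold, and Insr, the insulin receptor, had no H3K27me3 peak and H3K27ac of 9.40-fold and 6.46-fold. Of 10 partners and targets of Foxm1, 3 carried H3K27me3 and 10 carried H3K27ac, among them Lin9, a subunit of the MuvB complex, with H3K27me3 of 9.89-fold and 6.20-fold and H3K27ac of 15.21-fold and 11.58-fold. Of 10 regulators of the motile cilia programme in which Foxj1 acts, 5 carried H3K27me3 and 10 carried H3K27ac. The 5 with H3K27me3 were Gmnc, Mcidas, Ccno, Myb and Trp73, and all 5 also carried H3K27ac, like Foxj1 itself. Mcidas and Ccno, which lie side by side, shared their strongest H3K27me3 peak, of 8.11-fold and 5.01-fold. Rfx3, a factor for cilia genes, had no H3K27me3 peak and H3K27ac of 22.04-fold and 20.35-fold. Of 5 targets of Foxi1 in ionocytes that were found in the table, 4 carried H3K27me3 and 4 carried H3K27ac, and Slc26a4, the anion exchanger pendrin, was the one with H3K27me3 alone, at 13.37-fold and 5.63-fold. No gene found from the lists of this paragraph had neither mark, against 19.6% of all genes.

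The libraries of a mark differed in the scale of their fold values. Replicate 1 had the higher fold in 37 of the 38 members with H3K27me3 peaks in both libraries, with a median ratio of replicate 1 to replicate 2 of 1.47 and Foxr2 as the exception. For H3K27ac it did so in 31 of 34 members, with a median ratio of 1.27. The H3K27me3 peaks of the libraries shared at least 1 base at 33 of 38 members, the exceptions being Foxk1, Foxo3, Foxp1, Foxp3 and Foxr1. The H3K27ac peaks did so at 32 of 34, the exceptions being Foxd1 and Foxn4. Of the 28 members with both marks, 20 had a base under peaks of all 4 libraries. The 8 that had none were Foxd1, Foxh1, Foxk1, Foxn4, Foxo3, Foxp1, Foxp3 and Foxr1, so at those genes the marks or their replicates lay in separate places. Shared bases were not counted over all protein-coding genes. Whether these counts differ from those of other called genes is therefore unknown.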

How the data were processed

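H3K27me3 and H3K27ac were profiled by ChIP-seq in 2 libraries each, grouped by their titles, with 3 input libraries whose reads were not used here. The submitters' processing notes name fastp, Bowtie, Picard, MACS2 and the build GRCm38 (mm10). Tool versions were not given in the sources used here. Each of the 4 deposited lists holds the broad peaks of 1 library, in 9 columns without a header. Per peak, the authors deposited the fold enrichment (a linear ratio over background), a −log10 p, a −log10 q and a score. The smallest −log10 q in each list matches a q threshold of 0.1. No read totals are given, so the depth is unknown and no interval that needs it is given. By the titles, 1 input serves both H3K27me3 replicate 1 and H3K27ac replicate 2.

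Genes, starts and promoters came from RefSeq tables of GRCm38.p6. Of the 49997 genes listed, the 21887 that code for protein and lie on the autosomes, X or Y were used. Promoters matched 28 of the 44 members by symbol. Overlaps, covered bases, ranks and CG counts were computed with Python 3.11.15 and NumPy 2.4.6 and plotted with matplotlib 3.10.9, and the overlap code was checked on simulated intervals. No statistical test was made, and counts of members are given beside the share of all genes. Per-library values are given for the Foxf1 and Foxc1 clusters, the 3 best-ranked members of each mark, members with neither mark or called in 1 library, Foxj1, Foxi1, Foxm1, Foxo1, Foxo3, Foxp1, Foxp4 and the 4 members with most bases under all 4 libraries, and other members may be named. Counts cover all 44 members, but the values of 1 of them are not reported here, and the plots of fold and of coverage by gene leave it out. The members, lists and rules were chosen with earlier results of these data known. Whether the pools of mice overlap between marks is not stated in the labels, and replicates are taken as separate pools.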

Additional observations from a re-analysis of the deposited data

How the results depend on the processing

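Across 14 other settings, 63 of the 84 values of the 6 state counts stayed within 1.5 times the values reported. With peaks of −log10 q of at least 2, both marks were called at 14 members (16.6% of all genes), H3K27me3 alone at 16 (9.42%), H3K27ac alone at 11 (48.2%) and neither at 3 (25.7%). With −log10 q of at least 5, H3K27me3 was called at 20 (5.75% of all genes), H3K27ac at 19 (52.6%), both at 2 (1.54%), H3K27me3 alone at 18 (4.21%), H3K27ac alone at 17 (51%) and neither at 7 (43.2%). With 2.5 kb around the start of the 28 members that have one, H3K27me3 was called at 22 (28.6% of all genes with a start), H3K27ac at 15 (63.0%), both at 11 (17.7%) and neither at 2 (26.1%). With 1 kb around either gene end, H3K27ac alone was called at 10 (43.3% of all genes) and neither at 2 (28.0%). Neither mark was called at 1 with the gene body only (22.4% of all genes), at 3 with at least 500 bp covered (23.4%) and at 3 with peaks away from other genes (31.8%). With a peak in either library sufficient, H3K27ac alone was called at 1 (16.2% of all genes). Leaving out 1 library at a time, H3K27ac alone was called at 1 without H3K27me3 replicate 2 (17.5% of all genes). It was called at 6 without any other library (32.3% to 35.1% of all genes). In the settings with a changed threshold or window, the counts differ by construction, and the cause in any single gene was not tested. No paired analysis was possible because no test was made, and the labels do not state whether equal replicate numbers mark the same pool of mice. Depth is unknown, so a missing peak sets no limit on the mark.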
